A study of Mus musculus with 8 samples.

Results

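The major urinary protein (Mup) genes studied here are 10 mouse genes, namely Mup1, Mup3, Mup7, Mup10, Mup12, Mup16, Mup17, Mup19, Mup20 and Mup21. They were chosen by name, as members of 1 gene family, from the 22564 protein-coding genes of a liver RNA sequencing table that lists 21 genes with a Mup symbol. There were 4 liver libraries of untreated db/db mice, which lack a working leptin receptor and become obese and diabetic, and 4 of untreated control C57BL/6 mice. Per the methods of the study, its db/db mice came from another supplier than its male C57BL/6J mice and were 8 weeks old when purchased, against 10 to 11 weeks for the C57BL/6J mice, and it is not said whether the controls were among the latter. The sources give neither a background strain for db/db nor an age at collection, so genotype, background, supplier and age cannot be told apart. Separate animals per library are not stated outright, so p-values reflect library spread, which may be technical. The Y-linked gene Eif2s3y was detected in all 8 libraries, at 27.5 to 41.7 FPKM. Lepr, the leptin receptor gene altered in db/db mice, lay at 0.530 to 0.720 FPKM in db/db and 0.461 to 0.953 in control libraries, under the level needed for a test. FPKM are fragment counts divided by the transcript's length and the library's size, and all levels are given on this scale.

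Major urinary proteins are small lipocalins, barrel-shaped carriers of hydrophobic molecules. Mouse hepatocytes secrete them into the blood, and the kidney passes them into the urine, where they bind and release volatile pheromones and carry the scent identity of the animal. Male mice make far more of them than females, under pulses of growth hormone acting through the receptor Ghr, the kinase Jak2 and the transcription factor Stat5b, with androgens, glucocorticoids and thyroid hormone also needed. MUP20, known as darcin, is a male pheromone that attracts females, and circulating MUP1 acts on glucose and lipid metabolism in mice. The close copies are general carriers of this kind.

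The 10 genes lie within 2.08 Mb of chromosome 4, at chr4:60066469-62150863 of GRCm38, on the minus strand. Of these, 7 are close copies of each other, and Mup3, Mup20 and Mup21 stand apart at 1 end of the cluster. The second coding exon of each shows how close they are. It is 134 bases long in all 10 genes and was read from the GENCODE transcripts of GRCm38. In the stretches printed below in the direction of transcription, capitals mark bases that differ from the majority base of the 10 genes. Mup1 stands for Mup12 and Mup19 too, whose exons were the same letter for letter.
Mup1 (chr4:60501282-60501415): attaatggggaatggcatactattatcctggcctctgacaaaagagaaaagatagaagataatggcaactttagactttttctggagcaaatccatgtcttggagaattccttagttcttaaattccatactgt
Mup7 (chr4:60069733-60069866): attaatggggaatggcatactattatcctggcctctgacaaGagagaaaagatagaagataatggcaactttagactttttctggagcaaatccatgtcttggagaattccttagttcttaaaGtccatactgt
Mup17 (chr4:61595193-61595326): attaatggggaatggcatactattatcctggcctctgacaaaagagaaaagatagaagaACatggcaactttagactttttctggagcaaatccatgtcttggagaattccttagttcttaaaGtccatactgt
Mup20 (chr4:62053480-62053613): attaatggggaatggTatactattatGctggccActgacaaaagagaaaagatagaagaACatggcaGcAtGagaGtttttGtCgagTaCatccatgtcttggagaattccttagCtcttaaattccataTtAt
Mup3 (chr4:62086800-62086933): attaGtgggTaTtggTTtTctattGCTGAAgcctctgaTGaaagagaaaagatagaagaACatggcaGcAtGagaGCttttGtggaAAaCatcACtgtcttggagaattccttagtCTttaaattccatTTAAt
Mup21 (chr4:62150195-62150328): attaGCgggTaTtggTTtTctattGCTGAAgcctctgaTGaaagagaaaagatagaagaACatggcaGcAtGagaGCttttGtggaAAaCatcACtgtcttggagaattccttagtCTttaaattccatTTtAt
Mup10 and Mup16 each differed from the majority at 1 base. Mup7 differed at 2 bases and Mup17 at 3 bases. Mup20 differed at 16 bases, and Mup3 and Mup21 at 33 bases each. Over the whole coding sequence, the 21 pairs among the 7 close copies were 98.7% to 99.8% identical, and the closest differed by 1 base. Mup3 and Mup21 were 94.8% identical to each other. The 21 pairs of a close copy with Mup3, Mup20 or Mup21 were 82.9% to 91.0% identical.

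How much of a transcript belongs to 1 gene alone sets how well its FPKM can be told from that of its relatives. Every transcript was broken into words of 31 bases. In Mup3, 69.9% of the words occurred in no other annotated gene, in Mup21 66.2% and in Mup20 35.5%. Among the close copies the share was 29.8% in Mup1, 16.8% in Mup10 and 13.8% in Mup17. It was 9.98% in Mup7, 7.92% in Mup12 and 3.27% in Mup16. Mup19 had 0% such words, so no stretch of 31 bases could be assigned to Mup19 by sequence alone. Per the methods of the study, the paired reads were longer than such words. How far the longer reads tell the copies apart was not tested. As the close copies share most of their sequence, the level of any single one is uncertain, and their sum is given beside it.

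Across the family, transcript levels were much lower in db/db than in control livers. Of the 10 genes, 6 fell (Mup1, Mup3, Mup7, Mup12, Mup20 and Mup21), 1 rose (Mup19) and 3 were not called (Mup10, Mup16 and Mup17), by limma with Benjamini-Hochberg adjustment over the 9863 genes tested and a threshold of 0.05. All 10 passed the filter on low values. For all tested genes, 27.7% were called in either direction, 11.6% lower and 16.0% higher. In 5 of the 10 genes every db/db library lay below every control library, against 12.1% of all tested genes. The median log2 fold change of the 10 genes was -2.59, against 0.04 over all tested genes.

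**Figure D1:**
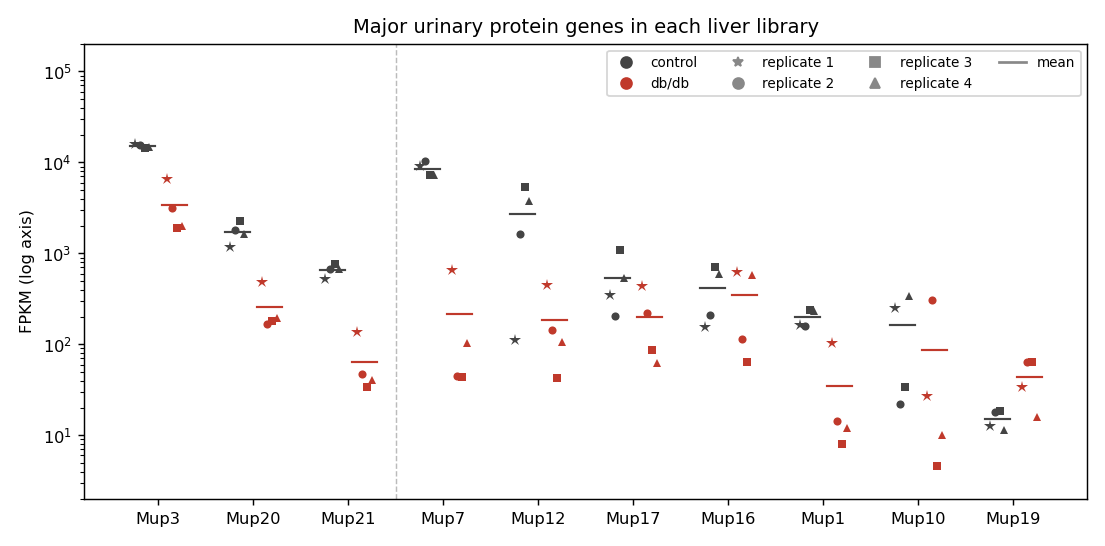
FPKM of the 10 Mup genes in each library on a log axis, control in grey and db/db in red, with a symbol for each replicate and a bar for the group mean. The genes left of the dashed line are Mup3, Mup20 and Mup21 and those right of it are the 7 close copies. Mup3, Mup20, Mup21, Mup7 and Mup1 have groups that do not overlap, and db/db replicate 1 (star) is the highest db/db library in each of these 5.

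Mup3, the most abundant member, was among the most abundant transcripts of the control liver. It measured 15904, 15465, 14408 and 14635 FPKM in control replicates 1 to 4, and 6592, 3130.3, 1886 and 2007 FPKM in db/db replicates 1 to 4. The controls lay within 1.10-fold of each other, and the db/db libraries spread over 3.49-fold with replicate 1 highest. Mup3 ranked 3 to 5 among all genes in the control libraries and 10 to 38 in the db/db libraries. Albumin, listed at 0 in all 8 libraries, does not count in these ranks. Mean levels were 15103 ± 701 FPKM (SD, n = 4) in control and 3404 ± 2198 (SD, n = 4) in db/db, 4.44-fold lower (log2 fold change -2.34, SE 0.33, limma adjusted p = 0.000556).

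Mup20 encodes darcin. Its level was 1188, 1789, 2249.6 and 1636 FPKM in the control replicates and 487, 168, 179 and 197 FPKM in the db/db replicates. The groups did not overlap, and 3 of the 4 db/db libraries lay close together while replicate 1 was 2.48 times the highest of them. Mup20 fell 6.66-fold on the means (log2 fold change -2.85, SE 0.32, limma adjusted p = 0.000123). Its share of the summed level of the 10 genes averaged 5.66% in control and 5.69% in db/db libraries.

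Mup21, the nearest relative of Mup3, measured 519, 666, 764 and 674 FPKM in the control replicates and 135, 47.6, 33.7 and 40.9 FPKM in the db/db replicates. Again the groups were apart and db/db replicate 1 was the highest of its group. The mean was 10.2-fold lower in db/db (log2 fold change -3.55, SE 0.35, limma adjusted p = 5.13e-05). These 3 genes have the most sequence of their own. Their sum in the controls had a coefficient of variation of 2.34%, but Mup3 made up most of it (15103 of 17475 FPKM on average). Singly the coefficient was 4.64% in Mup3, 15.4% in Mup21 and 25.5% in Mup20. The 7 close copies ranged from 17.9% to 98.4%, so Mup20 varied as much as some of them.

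Mup7 showed the largest fold change of the 10. It measured 9069, 10386, 7247 and 7291 FPKM in the control replicates and 661, 44.5, 44.1 and 103 FPKM in the db/db replicates. No db/db library came near the controls, and replicate 1 was 6.41 times the highest of the other db/db libraries. The mean fell 39.9-fold, from 8498 ± 1518 to 213 ± 299.8 FPKM (SD, n = 4; log2 fold change -6.27, SE 0.70, limma adjusted p = 0.000123). Mup7 held 28.4% of the summed level of the 10 genes in control and 3.27% in db/db libraries, on average. Without db/db replicate 1 the log2 fold change of Mup7 was -7.13.

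Mup1 measured 165, 159, 239.6 and 234 FPKM in the control replicates and 104, 14.5, 7.95 and 12.1 FPKM in the db/db replicates. Here db/db replicate 1 reached 52.2% of the control mean, and the other db/db libraries 3.98% to 7.29%. The log2 fold change was -3.24 (SE 0.62, limma adjusted p = 0.00324), and -4.01 without that library. In controls Mup1 was a minor copy, with 0.663% of the summed level.

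Mup12 varied most between the control libraries in fold terms. It measured 111, 1645, 5367 and 3793 FPKM in control replicates 1 to 4, a 48.4-fold range, and 450.0, 142, 42.7 and 105 FPKM in db/db replicates. Control replicate 1 fell inside the db/db range, so the groups overlapped. The log2 fold change was -3.40 (SE 1.09, limma adjusted p = 0.0400). The call was lost when replicate 2, 3 or 4 of either group was left out (adjusted p from 0.0723 to 0.110) and with no filter on low values (adjusted p = 0.105).

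Mup17, Mup16 and Mup10 were not called. Mup17 measured 348, 207, 1076 and 536 FPKM in control and 438, 220.2, 86.5 and 62.4 FPKM in db/db replicates (log2 fold change -1.57, SE 0.62, limma adjusted p = 0.0831). Without db/db replicate 1 it passed (log2 fold change -2.08, adjusted p = 0.0187). Mup16 measured 156, 208, 699 and 588 FPKM in control and 628, 115, 63.3 and 583 FPKM in db/db replicates, with 2 libraries of each group high and 2 low (log2 fold change -0.58, SE 0.75, adjusted p = 0.605). Mup10 measured 248, 22.1, 33.8 and 342 FPKM in control and 27.2, 306, 4.55 and 10.2 FPKM in db/db replicates. Each group of Mup10 held both high and low libraries, and db/db replicate 2 stood far above the rest of its group (log2 fold change -1.75, SE 1.21, adjusted p = 0.312).

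Mup19 was the one member that rose. It measured 12.5, 17.9, 18.7 and 11.4 FPKM in the control replicates and 33.7, 63.6, 64.2 and 15.7 FPKM in the db/db replicates. In db/db, 3 libraries lay above all controls, and db/db replicate 4 lay among them. The mean was 2.93-fold higher in db/db (log2 fold change 1.32, SE 0.38, limma adjusted p = 0.0264). Mup19 is the gene with no 31-base word of its own, its coding sequence differs from that of Mup16 by 1 base, and in controls it held 0.0501% of the summed level. The call was lost without db/db replicate 2 or 3 or control replicate 1 or 4 (adjusted p from 0.0624 to 0.0708) and with no filter (adjusted p = 0.0733).

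**Figure D2:**
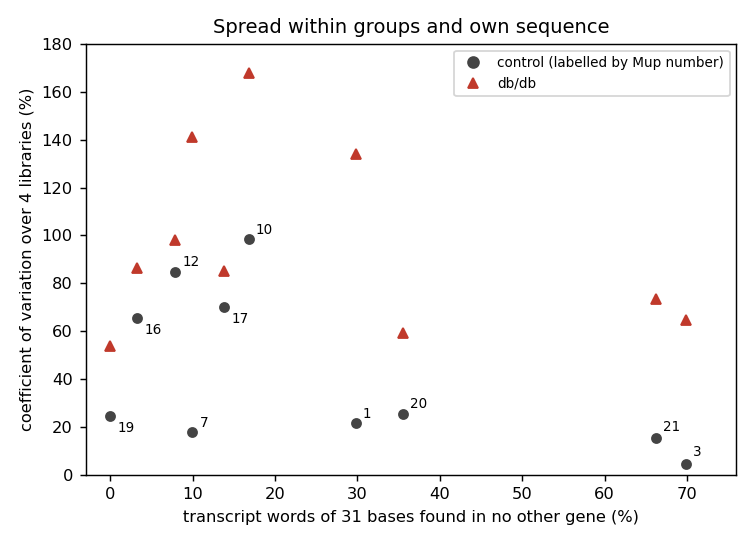
Coefficient of variation of FPKM over the 4 libraries of a group against the percent of 31-base words of the transcript found in no other gene, for the 10 Mup genes (control circles carry the Mup number, db/db triangles). Control spread was 4.64% to 25.5% in Mup3, Mup20 and Mup21 and 17.9% to 98.4% in the 7 close copies.

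Among the close copies, Mup7 led in all 4 control libraries, but the share held by it and by the others differed between them. In control replicate 1, Mup7 held 89.7% of the summed FPKM of the 7 copies and Mup12 1.10%. In control replicate 3, Mup7 held 49.4% and Mup12 36.6%. The sum of the 7 copies was 10109.6, 12645, 14681 and 12796 FPKM in control replicates 1 to 4, a range of 1.45-fold, where Mup12 alone ranged over 48.4-fold. The coefficient of variation in controls was 14.9% for this sum, 84.9% for Mup12 and 98.4% for Mup10. Without Mup7 it was 72.3% for the sum of the other 6 copies, a choice made after the values were seen. In db/db libraries the leading copy was Mup7 in replicate 1 (28.2%), Mup10 in replicate 2 (33.8%), Mup17 in replicate 3 (27.6%) and Mup16 in replicate 4 (65.4%). Whether these shifts come from the mice or from how fragments of shared sequence were divided among the copies was not tested.

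**Figure D3:**
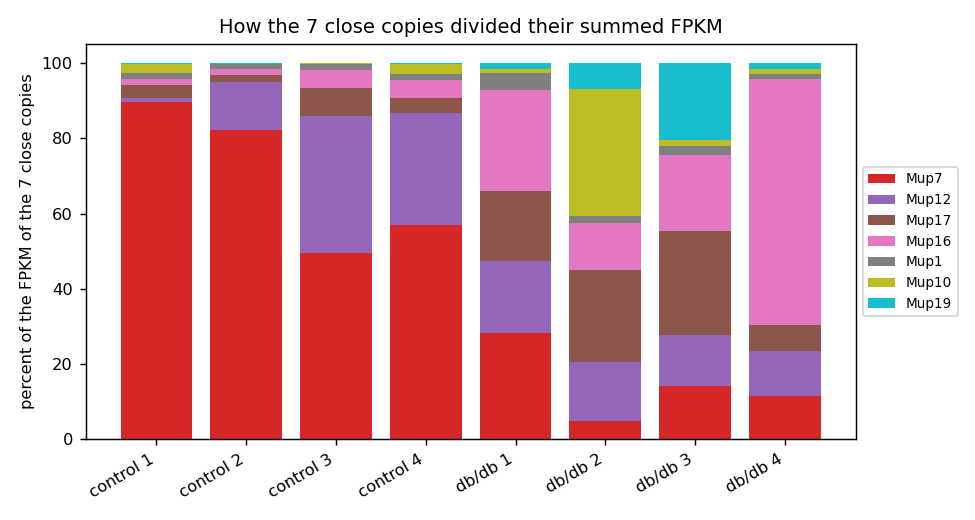
Percent of the summed FPKM of the 7 close copies held by each copy, 1 bar for each library. Mup7 holds 49.4% to 89.7% in the control libraries and 4.91% to 28.2% in the db/db libraries, and a different copy leads in each db/db library.

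The summed level of the 10 genes still depends in part on that division, since the copies differ in transcript length and share sequence with the other Mup genes and with Mup pseudogenes. It was 27721, 30567, 32102 and 29741 FPKM in the control replicates and 9555, 4253, 2413 and 3136 FPKM in the db/db replicates. The controls lay within 1.16-fold of each other and far above all db/db libraries, which spread over 3.96-fold. The mean fell 6.21-fold, from 30033 ± 1825 to 4839 ± 3234 FPKM (SD, n = 4; log2 ratio -2.84). Without db/db replicate 1 the db/db mean was 3267 ± 927 FPKM (SD, n = 3), 9.19-fold below the controls. As a share of all FPKM in a library, the 10 genes held 4.14% to 4.74% in control and 0.401% to 1.72% in db/db libraries. That total lacks albumin, which was listed at 0. The 7 close copies fell 11.3-fold as a sum, and Mup3, Mup20 and Mup21 fell 4.69-fold. In liver tissue, fewer hepatocytes and less of an RNA per hepatocyte cannot be told apart.

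**Figure D4:**
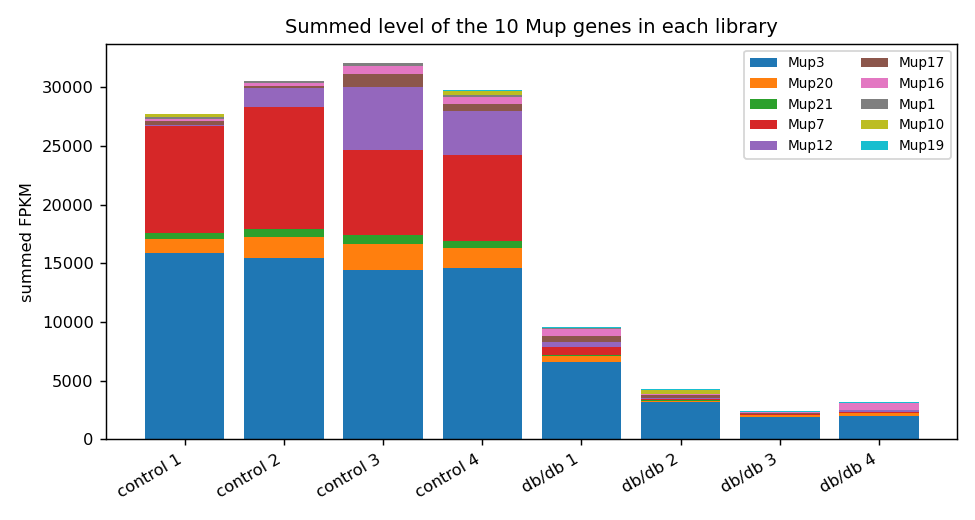
Stacked FPKM of the 10 Mup genes in each library, on a linear axis from 0. The control bars reach 27721 to 32102 FPKM and the db/db bars 2413 to 9555, with Mup3 the largest piece of every bar.

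The db/db libraries were not alike. Replicate 1 held 31.8% of the control mean of the summed level, and replicates 2, 3 and 4 held 14.2%, 8.03% and 10.4%. In all 6 members that fell, replicate 1 was the highest db/db library, between 2.11 and 7.16 times the next. The summed FPKM of 10 hepatocyte markers was 34719.9 in replicate 1, 44541 to 52395 in the remaining db/db libraries and 48618 to 56172 in the controls. Against the other db/db libraries, most of the low sum of replicate 1 came from Apoa2, an HDL protein gene. Without Apoa2, a choice made after the values were seen, the sum was 16290.0 in replicate 1, 16737 to 18052 in the remaining db/db libraries and 25502 to 28036 in the controls. Replicate 1 was the highest db/db library in 5 of the 10 markers and the lowest in 4. The part of these markers in the Mup difference was not tested. On the second principal component of all tested genes (10.3% of variance) it lay at 27.6 and the other db/db libraries between -14.8 and -4.97. All 6 falls were also called without db/db replicate 1. As it was the highest db/db library in each, leaving it out could only enlarge them, so this is no test of their direction.

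The other 11 listed Mup genes were measured in the same way. Mup4 and Mup5, which are known for expression in glands rather than liver, were at or near 0 in every library and were not tested. Of the 9 tested, 5 fell (Mup2, Mup8, Mup11, Mup14 and Mup15), 0 rose and 4 were not called. The share that fell was 55.6%, against 11.6% of all tested genes, and the median log2 fold change was -2.10. The most abundant of these was Mup11, with 1063, 887, 2417 and 1252 FPKM in the control replicates and 258, 271, 35.4 and 37.1 FPKM in the db/db replicates. Its groups did not overlap (log2 fold change -3.71, SE 0.67, limma adjusted p = 0.00232). Over all 21 listed Mup genes the summed level fell 5.79-fold.

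Promoters of the family were read from RefSeq (GRCm38.p6), whose table held 6 of the 10 genes (Mup3, Mup7, Mup10, Mup17, Mup19 and Mup21), each from 250 bases before to 50 bases after the start. The Mup7 window (chr4:60070426-60070725) did not hold the letters TATATAA, a form of TATA box. Bases downstream of that window, where a matching stretch of Mup7 could lie, were not searched. In the windows of the other 5 of these 6 genes, a near-identical stretch around the start holds TATATAA, in capitals below. Mup19 stands for Mup17 too, which has the same 60 bases.
Mup19 (chr4:61782221-61782280): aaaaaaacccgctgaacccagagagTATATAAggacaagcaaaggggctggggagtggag
Mup10 (chr4:60582151-60582210): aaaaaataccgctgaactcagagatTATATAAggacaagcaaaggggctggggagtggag
Mup3 (chr4:62087294-62087353): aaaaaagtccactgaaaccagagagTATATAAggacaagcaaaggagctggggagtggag
Mup21 (chr4:62150815-62150874): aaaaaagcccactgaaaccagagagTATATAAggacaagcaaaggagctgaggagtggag
TATATAA, searched after these sequences had been seen, was in 3.24% of 32851 promoters of the same length. Of the motifs searched on both strands, TTCNNNGAA, the core of Stat5 sites, was in 0 of the 6 windows and in 8.30% of all promoters. TATAAA was in 0 of the 6 and in 13.6% of all. TGTTCT, a core bound by steroid receptors such as the glucocorticoid receptor, was in Mup3 and Mup21 and in 19.0% of all. TATATAA and TATAAA can overlap where they meet. A match describes letters only, and sites outside these windows were not searched.

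Genes of the growth hormone axis and liver transcription factors went both ways. Of 24 listed, 22 were tested, 5 fell (22.7%, against 11.6% of all tested genes) and 2 rose (9.09%, against 16.0%), and the median log2 fold change was -0.07. Igfals, a growth hormone target that stabilises circulating IGF1, fell from 41.8 ± 3.93 to 19.8 ± 4.76 FPKM (SD, n = 4; log2 fold change -1.06, limma adjusted p = 0.000533). Igf1, the main hormone made by the liver under growth hormone, fell from 565 ± 40.6 to 376 ± 41.4 FPKM (adjusted p = 0.00307). Cebpa, a hepatocyte transcription factor, fell by 0.43 on the log2 scale (adjusted p = 0.00917). The other 2 genes that fell were Socs2, a feedback inhibitor induced by growth hormone (log2 fold change -1.57, adjusted p = 0.0308), and Bcl6, a repressor that favours the male pattern (log2 fold change -1.11, adjusted p = 0.0199). Among the genes that rose, Stat5b, the main transmitter of the growth hormone pulse, went from 4.38 ± 0.538 to 5.82 ± 0.135 FPKM (log2 fold change 0.35, adjusted p = 0.0406). The Stat5b call was lost under median-ratio scaling, quantile normalization and the omission of any 1 library (adjusted p from 0.0557 to 0.0954). The Socs2 call was lost with no filter and without db/db replicate 2, 3 or 4 or control replicate 1, 2 or 4 (0.0509 to 0.0839), and the Bcl6 call with no filter and without db/db replicate 4 or control replicate 2 or 3 (0.0520 to 0.0577).

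Other liver genes with a male bias fell as well. Of 25 such genes outside the Mup family, 24 were tested, and the median log2 fold change was -1.91. Of those tested, 16 fell (66.7%, against 11.6% of all tested genes) and 1 rose (4.17%, against 16.0%). Serpina1e, a protease inhibitor of the alpha-1-antitrypsin family, fell from 8991 ± 1413 to 92.6 ± 63.4 FPKM (SD, n = 4; log2 fold change -6.80, limma adjusted p = 7.72e-07). Selenbp2, a selenium-binding protein gene, fell by 4.67 on the log2 scale (adjusted p = 1.25e-06). Gstp1, a glutathione transferase gene, fell by 2.98 (adjusted p = 1.80e-06), and Aox3, an aldehyde oxidase gene, by 4.66 (adjusted p = 3.38e-06). The 1 gene that rose was Cyp4a12a, a fatty acid hydroxylase gene, from 138 ± 24.3 to 384 ± 81.4 FPKM (SD, n = 4; log2 fold change 1.46, adjusted p = 0.000169). In all 16 genes that fell, db/db replicate 1 was the highest db/db library, as in those of the 10 Mup members that fell. Over all 1147 genes called lower, that held for 27.4%.

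Of 25 female-biased liver genes, 16 were tested. In 6 of these all controls lay under 1 FPKM, so that they passed the filter through the db/db libraries only. The list's count is therefore given as a description. It was 12 higher (75.0%, against 16.0% of all tested genes) and 1 lower (6.25%, against 11.6%). Sult1e1, an estrogen sulfotransferase gene, was at 0 to 0.436 FPKM in control and 123 to 234 FPKM in db/db libraries. Cyp2b9, a cytochrome P450 gene, was at 0.0357 to 0.965 and 153 to 239 FPKM, Sult2a2, a sulfotransferase gene, at 0 to 0.113 and 65.9 to 265, and Cyp2a22, another cytochrome P450 gene, at 0.267 to 0.605 and 37.3 to 112. In 11 of the 12 that were higher, db/db replicate 1 was the lowest db/db library, given as a description for the same reason. Over all 1582 genes called higher, that held for 34.0%. Sult3a1, a sulfotransferase gene chosen after its values were seen, measured 0.992 FPKM in db/db replicate 1, while replicates 2 to 4 of that group measured 115, 223 and 285 FPKM.

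Of 50 listed genes within 2 Mb of the 10 Mup genes, 25 were tested, 4 fell (16.0%) and 3 rose (12.0%), and the median log2 fold change was 0.11. The share called in either direction, 28.0%, was near the 27.7% of all tested genes. The largest rises were Orm3 and Orm2, acute phase genes that are also lipocalins. Orm2 measured 28.0, 27.1, 23.2 and 35.6 FPKM in control and 243, 232, 241 and 276 FPKM in db/db replicates, with no overlap (log2 fold change 3.09, SE 0.13, limma adjusted p = 1.38e-07). Orm3 rose by 4.57 on the log2 scale (adjusted p = 1.47e-07). Hsdl2, a peroxisomal dehydrogenase gene, rose by 0.82 (adjusted p = 0.00226). Rgs3, a regulator of G protein signalling, fell by 1.81 (adjusted p = 0.00386). Smaller falls were those of Ugcg, Atp6v1g1 and Fkbp15, at log2 fold changes of -0.76, -0.41 and -0.39. The calls of Atp6v1g1 (without replicate 1 or 4 of db/db or 1 or 3 of the controls) and Fkbp15 (without replicate 2, 3 or 4 of db/db or 2 or 4 of the controls) were lost when 1 library was left out.

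**Figure D5:**
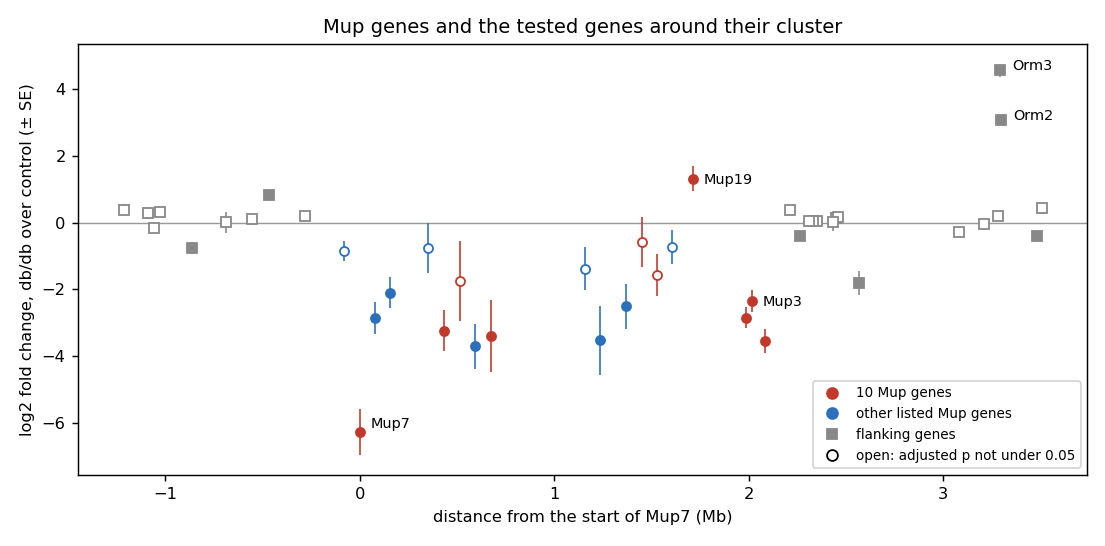
log2 fold change (db/db over control, bars show SE) of the Mup genes and the tested flanking genes against distance from the start of Mup7 in Mb. Filled symbols have a limma adjusted p under 0.05. Mup19 at 1.32 is the only Mup gene above 0, and Orm2 and Orm3 rise to 3.09 and 4.57 beyond the far end of the cluster.

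Lipocalins outside the family went both ways. Of 23 listed, 10 were tested, 3 rose and 3 fell. Over all tested genes, 16.0% rose and 11.6% fell. Besides Orm2 and Orm3, Lcn2, an iron-carrier-binding acute phase protein, rose from 6.71 ± 3.52 to 123 ± 50.0 FPKM (SD, n = 4; log2 fold change 4.04, limma adjusted p = 1.36e-05). Apom, a carrier of sphingosine 1-phosphate on lipoproteins, fell from 188 ± 39.5 to 29.1 ± 11.3 FPKM (SD, n = 4; log2 fold change -2.71, adjusted p = 2.72e-05). C8g, a complement subunit, and Rbp4, the retinol carrier, fell by 0.82 and 0.45 on the log2 scale. The Rbp4 call was lost with no filter, under quantile normalization and without db/db replicate 2 (adjusted p from 0.0517 to 0.639).

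The Mup genes were set beside other abundant secreted proteins of hepatocytes. Of 30 tested, 11 fell (36.7%, against 11.6% of all tested genes) and 0 rose (against 16.0%). The median log2 fold change was -0.27. Apoa1, which encodes the chief HDL protein, fell from 15006 ± 2439.7 to 982 ± 274 FPKM (SD, n = 4; log2 fold change -3.97, limma adjusted p = 9.50e-07). Vtn, an adhesion protein of plasma, fell by 1.10 (adjusted p = 6.20e-05), Fetub, a protease inhibitor, by 1.11 (adjusted p = 0.000118), and Ahsg, an inhibitor of mineral deposition, by 1.27 (adjusted p = 0.000141). Under quantile normalization the list gave 4 higher and 6 lower, so its count depended on the scaling. Albumin (Alb) was listed at 0 in all 8 libraries and is not read. None of the listed markers of other cells was at 0 in every library. Their summed FPKM in db/db against control libraries was 85.9 to 129 against 116 to 177 for immune cells, 42.6 to 47.5 against 52.5 to 63.5 for endothelium, 35.7 to 53.0 against 29.7 to 51.6 for bile duct and 105 to 135 against 106 to 124 for stellate cells. The 4 erythroid markers summed to 260.2 to 333 against 234 to 789.6. The part of these other cells in the Mup difference was not tested either.

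The 3 genes outside the family whose profile over the 8 libraries was most like the summed Mup level were Egfr, Eif4ebp3 and Lifr, among 5899 genes with a control mean of at least 5 FPKM. Likeness was the root mean square difference on the log2 scale after centring on the controls, and it was 0.315 for Egfr, 0.383 for Eif4ebp3 and 0.403 for Lifr. Within the family it was 0.300 for Mup20, 0.370 for Mup3 and 3.06 for Mup19. Egfr, the epidermal growth factor receptor gene, measured 85.4, 87.0, 76.5 and 92.6 FPKM in control and 47.8, 11.6, 6.40 and 8.19 FPKM in db/db replicates, again with db/db replicate 1 highest of its group. Its log2 fold change was -2.59 (SE 0.47, limma adjusted p = 0.00244). Eif4ebp3, an inhibitor of translation initiation, fell by 2.96 (adjusted p = 2.16e-05), and Lifr, the leukemia inhibitory factor receptor gene, by 2.52 (adjusted p = 0.000907). These genes were picked for their likeness, so their profiles are a description. Egfr is on the male-biased list above, and Lifr, from the female-biased list, was the 1 gene of that list that fell.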

How the data were processed

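Ribosomal RNA was depleted from liver RNA before stranded library construction. Processing notes of the submitters name cutadapt 1.9.3, HISAT2 2.0.4, mouse build mm10 (GRCm38), Cufflinks and Cuffdiff. The annotation, and whether counting used strand, are not stated. The deposited FPKM were computed by the authors per gene and library. How fragments shared by near-identical Mup copies were divided is not recorded, and it can move FPKM from 1 copy to another.

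Absolute depth is unknown. By the steps between low values, depth was 0.82 to 1.1 times that of control replicate 1. Genes reaching 1 FPKM in at least 4 of 8 libraries (9863) were compared on log2(FPKM + 1), a scale that understates changes of low genes, by limma 3.58.1 in R 4.3.3 (moderated linear model, trended variance, 2-sided, Benjamini-Hochberg), tested on simulated data. Alternatives were a pseudocount of 0.1, no filter, a filter of 5 FPKM, median-ratio scaling, quantile normalization, library weights and leaving out each library. Replicates are numbered within groups for naming only. Named were all 10 members, up to 4 tested genes of each list (smallest adjusted p), the 3 genes most like the summed Mup profile, and Lepr. Others were chosen after their values were seen. Members and lists were chosen with earlier results of these data known. Positions and transcripts came from GENCODE M21. Protein identity was planned, and coding sequence was compared instead. The result of 1 listed gene is not reported here.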

Additional observations from a re-analysis of the deposited data

Results flagged for a closer look

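In 5 of 22 groups of 4 libraries examined, over the members and the sums, 1 library stood far from the other 3, with its gap to the nearest one, as a share of the whole range of the group, above Dixon's 95% critical value. For independent groups of normally distributed values, chance alone passes this limit in about 1 of 20. The groups here are related genes and their sum in the same libraries, so the count cannot be weighed against that rate. All 5 were db/db groups. For Mup1 the gap was 0.931 of the range, for Mup7 0.904, for Mup20 0.911 and for Mup21 0.863, and in each of these db/db replicate 1 was the high library. For Mup10 the gap was 0.925 of the range, and db/db replicate 2 was the high library, at 306 FPKM against 4.55 to 27.2 in the others.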

How the results depend on the processing

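Mup1, Mup3, Mup7, Mup20 and Mup21 stayed lower and called under all 14 alternatives, with log2 fold changes from -4.01 to -2.83, -2.73 to -2.12, -7.13 to -5.78, -3.20 to -2.69 and -3.98 to -3.32. The call of Mup12 was lost under 7 of 14 alternatives and that of Mup19 under 5, and Mup16 lay between -1.06 and 0.04 over the leave-outs (0.04 without db/db replicate 3, adjusted p = 0.975). The count of Mup genes called higher was 0 with no filter and 0 to 1 over the leave-outs, against 1. The summed log2 ratio was -3.83 without Mup3, Mup20 and Mup21 and -2.07 for the 7 close copies without Mup7, an alternative chosen after seeing the data. For growth hormone genes, 3 fell with no filter and 3 to 6 over the leave-outs (3 without db/db replicate 4 or control replicate 2), and 1 rose with the stricter filter, median-ratio scaling and quantile normalization and 1 to 2 over the leave-outs. Secreted proteins under quantile normalization gave 4 higher and 6 lower. Flanking genes gave 5 higher with library weights and 2 to 4 lower over the leave-outs (2 without db/db replicate 4). The cause of these moves was not tested. The scalings moved the median of all genes by -0.053 and -0.055 on the log2 scale. No paired analysis was possible because the labels give the groups no shared replicate numbers that pair libraries. The levels of single close copies are uncertain, since these copies share most of their sequence. Absolute depth is unknown, and its part in these levels was not tested.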
